A study of Homo sapiens with 4 samples.

Results

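The keratin genes examined here were 10 genes, chosen by name as marks of epithelial cell origin, among the 59050 genes counted in RNA-seq of 4 libraries. KRT8, KRT18, KRT7, KRT19 and KRT20 are keratins of simple epithelia, KRT5, KRT14 and KRT17 are keratins of stratified epithelia, and KRT80 and KRT81 complete the set. The libraries were labelled as HepG2, an established human liver cancer line. Untreated cells (0 h, no drug) gave 2 libraries, and cells given doxorubicin, which damages DNA and activates p53, at 1 µg/ml for 24 h gave the other 2. Series text calls the replicates biological, but no label says that they came from separate cultures, so p-values measure the spread between these libraries, which may be technical. The treatment tag of the treated libraries names a miRNA experiment. The titles do not name the drug, and label untreated libraries nop53 and treated ones p53. These titles and the protocol, which gives the drug, were followed for the grouping. No untreated library was taken at 24 h, so drug and time in culture cannot be told apart.

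Keratins are the intermediate filament proteins of epithelial cells. A filament is built from pairs that join a type I (acidic) chain with a type II (basic) chain, so that an epithelial cell makes both. Hepatocytes are known for KRT8 with KRT18, while KRT7 and KRT19 mark ducts such as those of the bile, KRT20 marks gut epithelium and KRT5 with KRT14 mark the basal layer of stratified epithelia. KRT17 is a type I keratin of skin appendages and of injured or activated epidermis, and KRT81 is a type II keratin of hair.

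The libraries held between 27572740 and 36272180 counts. Levels are given as CPM, the count of a gene normalised to the total count of its library, and 3 counts, taken as the detection limit, corresponded to a CPM between 0.0827 and 0.109. Untreated replicate 2 stood apart from the other libraries. The Pearson correlation of log2 CPM across genes was 0.887 between the untreated replicates and 0.988 between the doxorubicin replicates, and of the 17479 genes tested, 36.6% were highest and 45% were lowest in untreated replicate 2. Results are therefore given with and without it.

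Liver markers did not bear out the label. The 15 hepatocyte markers examined summed to 1.35 and 5.89 CPM in untreated replicates 1 and 2, against 17.1 and 20.1 CPM in doxorubicin replicates 1 and 2. Of the 15, 6 were tested. The fibrinogen genes FGG, FGB and FGA passed the filter on low counts through the doxorubicin libraries alone, so that their direction was set by the filter. No median and no count of signs is therefore given. The part of these genes in the keratin results was not tested. None of the 15 reached a CPM of 1 in all 4 libraries, and 8 stayed under 1 in every library. ALB, which encodes serum albumin, had at most 3 counts in any library. The highest of the list was FGG, which encodes a fibrinogen chain, with 6 and 3 counts in untreated and 335 and 386 in doxorubicin libraries, followed by FGB and by HNF4A, a transcription factor of hepatocytes, at most at a CPM of 3.09 and 1.92. FGG alone made up 9.76 CPM of the sum in doxorubicin replicate 1 and most of that in replicate 2. AFP (alpha-fetoprotein) and TF (transferrin), both named after their values were seen, had negative log2 fold changes of -0.99 and -1.86, with 6 and 43 counts in untreated and 16 and 11 in doxorubicin libraries for AFP, and 0 and 47 against 1 and 13 for TF. Both were highest in untreated replicate 2. By contrast, the 55 keratin genes together took 0.971% and 0.876% of the counts in untreated and 0.805% and 0.688% in doxorubicin libraries.

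Several keratins are near-copies of each other, and the sequences show how alike the mRNAs are that were counted as different genes. The first set below gives 60 bases of coding sequence at the end of the rod domain in KRT14 and in its neighbours KRT16 and KRT17, read from GENCODE release 44 transcripts (GRCh38), 5′ to 3′ on the minus strand of chromosome 17, with capitals at the bases that differ from KRT14.
KRT14: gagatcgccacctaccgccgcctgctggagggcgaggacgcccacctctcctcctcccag
KRT16: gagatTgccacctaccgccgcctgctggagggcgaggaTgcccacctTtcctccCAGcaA
KRT17: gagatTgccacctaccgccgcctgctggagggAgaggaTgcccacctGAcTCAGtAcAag
These stretches cover coding bases 1231 to 1290 of KRT14 (chr17:41583125-41583278), 1237 to 1296 of KRT16 (chr17:41610221-41610374) and 1138 to 1197 of KRT17 (chr17:41620543-41620702), each over the junction of exons 6 and 7. Compared position by position without gaps, KRT16 differed from KRT14 at 7 and KRT17 at 11 of the 60 bases. A shift of the sequence also shows as capitals there. The whole coding sequences, aligned with gaps allowed, were 88.7% and 85.2% identical to that of KRT14 over the aligned bases.

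The second set gives the same stretch, coding bases 1204 to 1263, of KRT81 (chromosome 12, minus strand, chr12:52286807-52287145) and of KRT86 (plus strand, chr12:52306237-52308248), with capitals at the bases that differ from KRT81.
KRT81: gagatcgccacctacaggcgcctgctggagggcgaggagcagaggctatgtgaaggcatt
KRT86: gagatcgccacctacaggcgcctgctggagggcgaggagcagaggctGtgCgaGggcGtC
The pair differed at 5 of the 60 bases and was 94.2% identical over the coding sequence. Of all windows of 50 bases in a transcript, 44.6% of KRT81, 39.2% of KRT8, 35.3% of KRT18, 24.2% of KRT14 and 17.4% of KRT17 also occurred in a transcript of another gene, against 1.08% of KRT7 and 0.418% of KRT80. The gene sharing most with KRT81 was KRT86 (38.4% of windows), and for KRT8 and KRT18 it was a pseudogene. For KRT14 it was KRT16 (11.3%), and for KRT17 a gene without a symbol (9.54%). KRT14 and KRT17 shared only 0.882% of the windows of KRT14 and 0.954% of those of KRT17. The 50 annotated KRT8 pseudogenes together held 640 and 1890 counts in untreated and 545 and 444 in doxorubicin libraries, at most 1.65% of KRT8, and the 67 of KRT18 held at most 1.26% of KRT18, both highest in untreated replicate 2. KRT81 also lies within the annotated span of KRT86 on the opposite strand, and the gene bodies of KRT8 and KRT18 overlap by 1084 bases on opposite strands. The use of strand in counting is not given in the sources used here, so the division of reads among these genes is uncertain.

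The keratin mRNA of these cells was made up almost wholly of KRT8, KRT7, KRT18 and KRT17. Levels are compared between genes as CPM per kilobase of the canonical transcript. KRT8 (type II, chromosome 12, 52897187 to 52949954, GRCh38) had 2301 and 2224 CPM per kilobase in untreated replicates 1 and 2, against 1368 and 1170 in doxorubicin replicates 1 and 2. KRT7 (type II, chromosome 12, 52232520 to 52252186) had 1519 and 1511 in untreated and 1530 and 1270 in doxorubicin libraries. KRT18 (type I, chromosome 12, 52948871 to 52952906), the filament partner of KRT8, had 1269 and 554 in untreated and 769 and 663 in doxorubicin libraries. These 3 simple keratins were among the 4 highest members in every library, and untreated replicate 2 held the lowest level of KRT18 and a KRT8 level close to that of its replicate.

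The remaining simple keratins were at or near 0. KRT19 (chromosome 17, 41523617 to 41528308), a type I keratin of ducts, had 9 and 17 counts in untreated and 2 and 7 counts in doxorubicin libraries. KRT20 (chromosome 17, 40875889 to 40885242) had 0 counts in all 4 libraries, which allows a CPM of up to 0.0827 and 0.104 in untreated and 0.0874 and 0.109 in doxorubicin replicates 1 and 2, for counting error only. KRT7, which hepatocytes are known to lack, was thus present at a level of the order of KRT8, while KRT19, the other keratin of ducts, was at most at a CPM of 0.589.

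Among stratified keratins KRT17 alone was abundant. KRT17 (type I, chromosome 17, 41619442 to 41624842) had 612 and 806 CPM per kilobase in untreated and 1046 and 872 in doxorubicin libraries. KRT14 (type I, chromosome 17, 41582279 to 41586895), of the basal layer, lies 32.5 kb from KRT17 and had only 1.72 and 1.46 in untreated and 4.54 and 3.15 in doxorubicin libraries. Its type II partner KRT5 (chromosome 12, 52514575 to 52520530) had 0 and 11 counts in untreated and 1 and 2 counts in doxorubicin libraries. The basal pair KRT5 and KRT14 was therefore far below KRT17 in every library, with a log2 ratio of KRT17 over KRT14 of 8.48 and 9.11 in untreated and 7.85 and 8.11 in doxorubicin libraries.

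KRT80 (type II, chromosome 12, 52168996 to 52192014) lay between these extremes, with 74.7 and 39.5 CPM per kilobase in untreated and 57.2 and 67.2 in doxorubicin libraries. KRT81 (type II, chromosome 12, 52285913 to 52291534) had 2.27 and 1.47 in untreated and 14.1 and 9.04 in doxorubicin libraries. Both were lowest in untreated replicate 2.

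**Figure D1:**
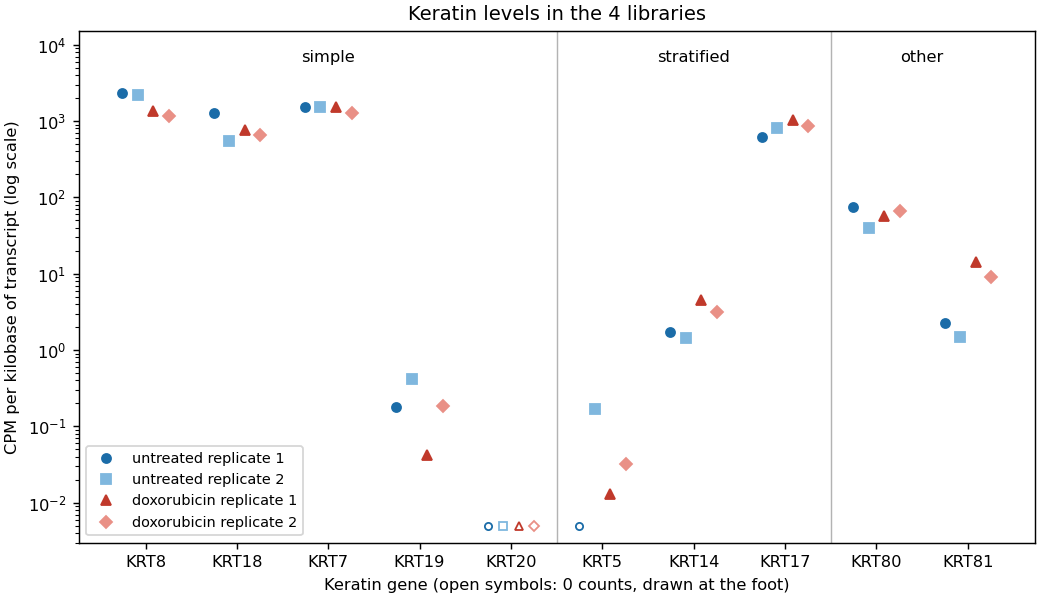
Level of the 10 keratin genes in each library, as CPM per kilobase of transcript on a log axis, with filled symbols for measured levels and open symbols at the foot for 0 counts. KRT8, KRT18, KRT7 and KRT17 lie between 554 and 2301 in all 4 libraries, KRT19 and KRT5 under 1, and KRT20 at 0.

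Ordered by mean level, untreated cells ran KRT8, KRT7, KRT18, KRT17, KRT80, KRT81, KRT14, KRT19, KRT5 and KRT20, and doxorubicin-treated cells ran KRT7, KRT8, KRT17, KRT18 and then the same order. In untreated cells the ranges of the neighbours KRT18 and KRT17, KRT81 and KRT14, and KRT5 and KRT20 overlapped, and in treated cells those of KRT7 and KRT8 did. The place of KRT8 in this order depended on the length used, since with the union of all annotated exons (4.58 kb in place of 1.78 kb for KRT8) KRT8 had 896 and 866 CPM per kilobase in untreated and 533 and 456 in doxorubicin libraries, under KRT7 in all 4. On that length KRT18 had 964 in untreated replicate 1 and 584 and 504 in doxorubicin libraries, above KRT8, and 421 in untreated replicate 2, below it. KRT17, whose length did not change, was then also above KRT8 in both doxorubicin libraries, which put KRT8 below KRT7, KRT17 and KRT18 there.

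The other 45 keratin genes added little, between 0.986% and 2.20% of the summed level of all keratins in each library. Of the 55 keratin genes, 42 (KRT19, KRT20 and KRT5 among them) stayed under a CPM of 1 in every library. At least 1 count was found on 29 of these 42 in untreated replicate 2, against 18 in untreated replicate 1 and 17 and 16 in the doxorubicin libraries, and untreated replicate 2 was the highest library for 22 of them, KRT5 and KRT19 included. This was not particular to keratins. Over all genes, 31258 had a count in untreated replicate 2, against 25734 in untreated replicate 1 and 27609 and 27551 in the doxorubicin libraries. The share among equally low genes was not computed. KRT10, a type I keratin of upper epidermis, was the most abundant of the other 45, with a CPM of 99.4 and 154 in untreated and 134 and 143 in doxorubicin libraries, without a matching level of its usual partner KRT1, which is also among the 42. The plot of keratins in chromosomal order shows that on chromosome 12 the reads came from both ends of the type II cluster, KRT80 and KRT7 at one end and KRT8 with KRT18 at the other, while the genes between were near 0 apart from KRT81 and KRT86. On chromosome 17, the type I cluster, levels were highest for KRT17 and for KRT10.

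**Figure D2:**
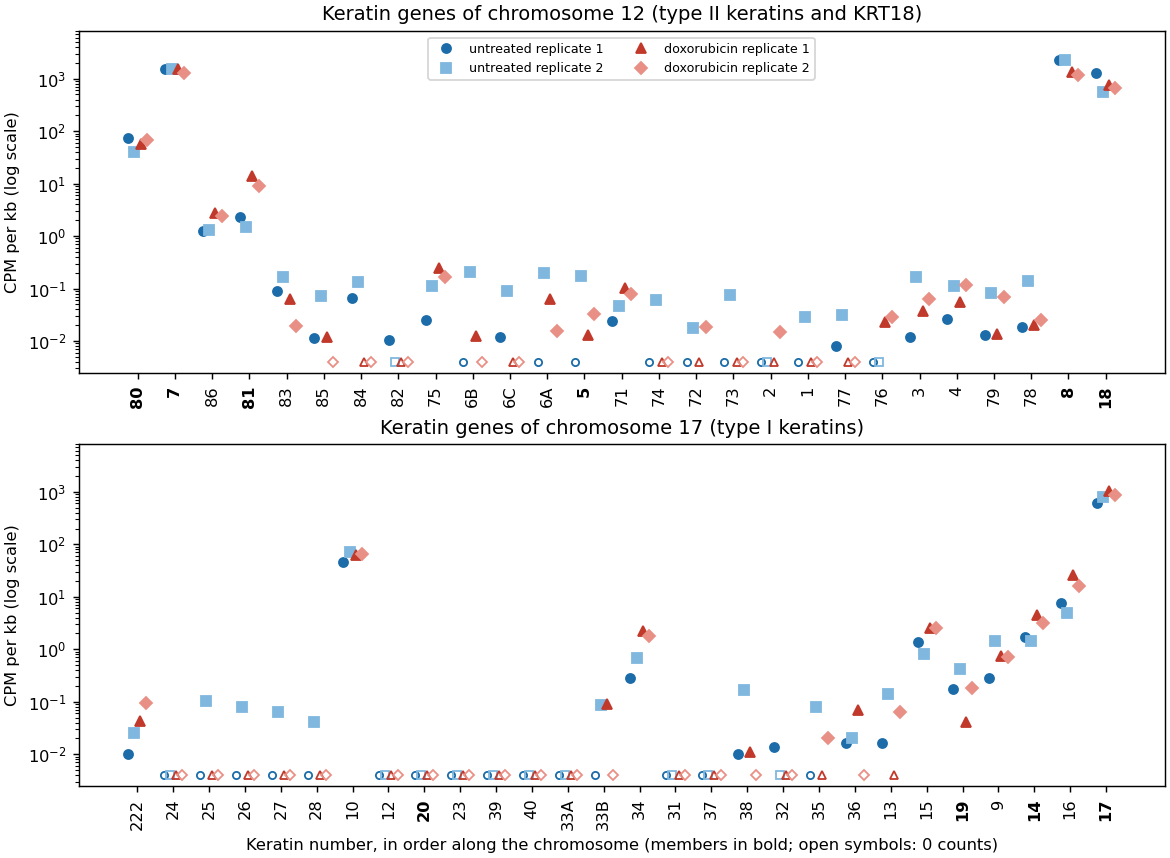
Levels of the 27 keratin genes of chromosome 12 and the 28 of chromosome 17, in order along the chromosome, as CPM per kilobase of transcript on a log axis for each library, with open symbols for 0 counts and bold numbers for the 10 members. Most genes lie under 1, and untreated replicate 2 is the highest library for 22 of the 42 keratins with a CPM under 1 throughout.

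Simple keratins held most of the keratin mRNA in every library, and their share was lower in the doxorubicin libraries. Of the summed level of all keratins, simple keratins made up 87.2% and 82.1% in untreated and 75.0% and 74.9% in doxorubicin libraries. Stratified keratins made up 10.5% and 15.5% in untreated and 21.5% and 21.1% in doxorubicin libraries, nearly all of it KRT17 (10.5%, 15.4%, 21.4% and 21.0% in the same order). The log2 ratio of stratified over simple keratins was -3.05 and -2.41 in untreated (mean -2.73 ± 0.45, SD, n = 2) and -1.80 and -1.83 in doxorubicin libraries (mean -1.82 ± 0.017, SD, n = 2), a difference of 0.91. The doxorubicin libraries lay above both untreated libraries, and untreated replicate 2 lay nearer to them than untreated replicate 1 did. Without untreated replicate 2 the difference was 1.24, and without untreated replicate 1 it was 0.59. No test was made on this ratio, which sums chosen genes.

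**Figure D3:**
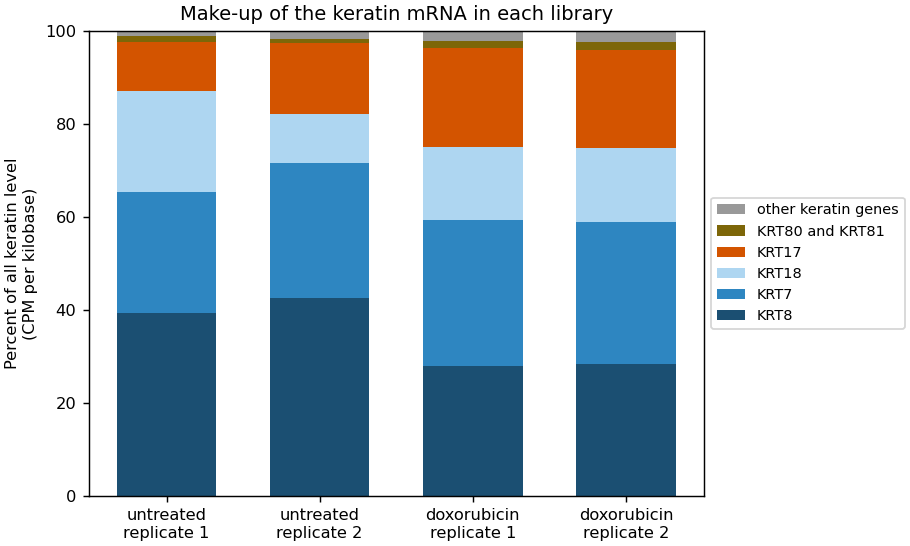
Share of each keratin in the summed level of all 55 keratin genes, in percent of CPM per kilobase, for each library as stacked bars. KRT17 takes 10.5% and 15.4% in the untreated and 21.4% and 21.0% in the doxorubicin libraries, and KRT8 takes 39.4% and 42.6% against 28.0% and 28.2%.

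Type II mRNA exceeded type I mRNA in all 4 libraries. Over all 29 type I and 26 type II keratin genes, the log2 ratio of type I over type II was -1.01 and -1.39 in untreated and -0.64 and -0.63 in doxorubicin libraries. The ratio was lowest in untreated replicate 2, where KRT18 was lowest. Within the classical simple pair, the log2 ratio of KRT8 over KRT18 was 0.86 in untreated replicate 1, 0.83 and 0.82 in doxorubicin replicates 1 and 2, and 2.01 in untreated replicate 2. These values hold for canonical lengths, and with the union of exons the ratio is above 0 in untreated replicate 2 alone, while the differences between libraries do not depend on length. KRT8 and KRT18 thus kept nearly the same ratio in 3 libraries, and untreated replicate 2 differed from them. The log2 ratio of KRT7 over KRT8 was -0.60 and -0.56 in untreated and 0.16 and 0.12 in doxorubicin libraries, so that here the untreated replicates lay close together and apart from the treated ones.

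To ask which keratins differed between the groups, treated and untreated libraries were compared in the edgeR quasi-likelihood test over all genes. Untreated cells were taken at 0 h and treated cells at 24 h, so drug and time in culture cannot be told apart. A gene was called where the Benjamini-Hochberg adjusted p-value was under 0.05 and the fold change was 2 or more in either direction. Of the 10 keratins, 7 passed the filter on low counts, through all 4 libraries, while KRT19, KRT20 and KRT5 did not, and 0 of the 7 passed the thresholds, as did 0 of the 17479 genes tested (0%). The smallest adjusted p-value of any gene in this edgeR test was 0.773, so a keratin at 0.773 holds the lowest value reached. At an unadjusted p-value under 0.05 in this edgeR test there were 2 keratins, KRT8 and KRT81, against 768 of all genes (4.39%). Among the 7, 3 had a positive and 4 a negative log2 fold change, with a median of -0.04 beside 0.01 over all genes tested. A log2 fold change of at least 1 was reached by 2 keratins (KRT14 and KRT81) in the higher direction, beside 7.67% of all genes, and by 0 in the lower direction, beside 11.5%. In these bulk libraries, fewer cells with a given keratin and less of its mRNA per cell cannot be told apart.

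KRT8 had a CPM of 4105 and 3968 in untreated and 2440 and 2088 in doxorubicin libraries. Both treated libraries were below both untreated libraries, and the untreated replicates lay close together. Its log2 fold change was -0.99 (SE, the standard error, 0.26), a ratio of 0.504, with an unadjusted p-value of 0.010 and an adjusted p-value of 0.773 (edgeR, Benjamini-Hochberg). The log2 fold change was -1.0 without untreated replicate 2 and -0.89 without untreated replicate 1, fits that leave a lone untreated library. It was -1.11 without doxorubicin replicate 1 and -0.80 without doxorubicin replicate 2.

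KRT18 had a CPM of 1793 and 783 in untreated and 1086 and 937 in doxorubicin libraries, so that the treated libraries lay between the untreated ones. Its log2 fold change was -0.50 (SE 0.44, adjusted p-value 0.784, edgeR, Benjamini-Hochberg). The sign turned with the untreated library left out, from -0.97 without replicate 2 to 0.29 without replicate 1, each with a lone untreated library.

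KRT7 had a CPM of 2468 and 2455 in untreated and 2487 and 2064 in doxorubicin libraries, overlapping groups, and its log2 fold change came to -0.27 (SE 0.26). Its log2 fold change was -0.26 without untreated replicate 2 and -0.19 without untreated replicate 1. Leaving out doxorubicin replicate 1 gave -0.42, and leaving out replicate 2 of that group gave -0.05.

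KRT17 had a CPM of 929 and 1223 in untreated and 1587 and 1322 in doxorubicin libraries, with no overlap of the groups. After TMM scaling, which lowers the treated relative to the untreated libraries, its CPM was 985 and 1291 in untreated and 1553 and 1215 in doxorubicin libraries, and the groups overlapped. Its log2 fold change was 0.28 (SE 0.29, adjusted p-value 0.804, edgeR, Benjamini-Hochberg) with all libraries, 0.50 without untreated replicate 2 or doxorubicin replicate 2, 0.17 without untreated replicate 1 and 0.14 without doxorubicin replicate 1.

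KRT14 had 102 and 69 counts in untreated and 255 and 142 counts in doxorubicin libraries, with no overlap of the groups as a CPM of 2.81 and 2.39 against 7.43 and 5.15. Its log2 fold change was 1.12 (SE 0.53, adjusted p-value 0.773, edgeR, Benjamini-Hochberg), and 1.03 without untreated replicate 2. KRT16, the neighbour whose transcript holds 11.3% of the 50-base windows of KRT14, had a CPM of 12.5 and 8.24 in untreated and 43.6 and 26.6 in doxorubicin libraries and a log2 fold change of 1.61 (SE 0.49), and the part of shared sequence in the KRT14 counts was not tested.

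KRT81 had the largest log2 fold change of the 7 in size. It had 159 and 82 counts in untreated and 936 and 481 counts in doxorubicin libraries, which is a CPM of 4.38 and 2.84 against 27.3 and 17.4. The groups were far apart relative to the spread within either. The log2 fold change was 2.48 (SE 0.53), a ratio of 5.56, with an unadjusted p-value of 0.00428 and an adjusted p-value of 0.773 (edgeR, Benjamini-Hochberg). DESeq2 called it with a log2 fold change of 2.43 and an adjusted p-value of 0.00751 (89 of all genes called, 0.509%), and so did the likelihood ratio test of edgeR with 0.0398 (64 called, 0.366%), while the exact test of edgeR gave 0.0620 (38 called, 0.217%) and the fit with a replicate block 0.285 (20 called, 0.114%). No other keratin of the set was called by these methods. Its near-copy KRT86 had a CPM of 2.87 and 2.98 in untreated and 6.21 and 5.33 in doxorubicin libraries, with a log2 fold change of 0.83 (SE 0.50).

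KRT80 had a CPM of 289 and 153 in untreated and 221 and 260 in doxorubicin libraries, overlapping groups, and a log2 fold change of -0.04 (SE 0.39). Its sign turned with library size in place of TMM factors, and between leaving out untreated replicate 1 and replicate 2.

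Of the 7 keratins tested, the groups did not overlap on CPM in 3 that were higher with doxorubicin (KRT14, KRT17 and KRT81) and in 1 that was lower (KRT8), where 30.3% and 11.5% of all genes did so. After TMM scaling the higher ones were KRT14 and KRT81 and the lower ones KRT8 and KRT7, beside 21.3% and 17.9% of all genes. Set against untreated replicate 1 alone, both doxorubicin libraries were higher in CPM for KRT14, KRT17 and KRT81, beside 53.1% of all genes, and lower for KRT8, KRT18 and KRT80, beside 24.7%. Library size alone in place of TMM factors moved the median log2 fold change of all genes from 0.01 to 0.17. Without untreated replicate 2, where the remaining untreated library was assumed to vary like the doxorubicin replicates, KRT8 and KRT81 passed the edgeR thresholds, as did 815 of 18356 genes (4.44%). Without untreated replicate 1, KRT14 and KRT81 passed, as did 8697 of 19606 genes (44.4%). KRT19 was also called there, but it entered that fit only through the 17 counts of untreated replicate 2, the lone untreated library left, so that its call was set by the filter and is not read as a change.

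**Figure D4:**
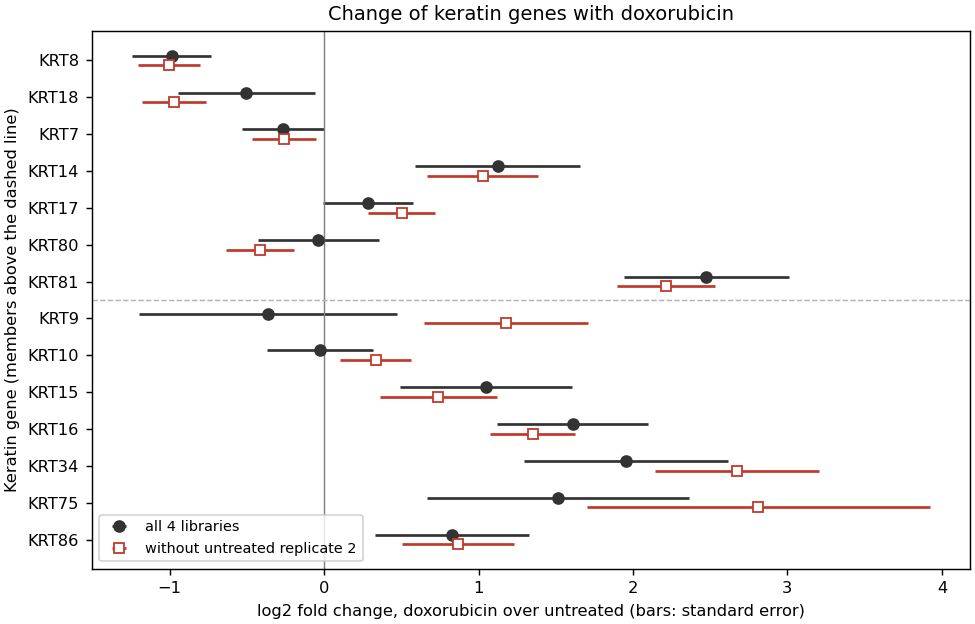
Log2 fold change of doxorubicin over untreated cells for the 7 keratins tested and, under the dashed line, the 7 other keratin genes tested, with standard errors, from all 4 libraries (circles) and without untreated replicate 2 (squares). KRT8 sits at -0.99 and -1.0, KRT18 moves from -0.50 to -0.97, and KRT81 sits at 2.48 and 2.21.

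Of the other 45 keratin genes, 7 were tested and 0 passed the thresholds, as did 0 of all 17479 genes tested. No median is given, since the direction of KRT75 among them was set by the filter. KRT16 and KRT34 had unadjusted p-values under 0.05 (edgeR), beside 4.39% of all genes. KRT34 is a type I hair keratin chosen after its values were seen. It had 17 and 32 counts in untreated and 127 and 80 counts in doxorubicin libraries. KRT75 aside, both doxorubicin libraries were above both untreated libraries on CPM for KRT16, KRT34, KRT86 and KRT15, beside 30.3% of all genes. The groups overlapped for KRT10 and KRT9. Against untreated replicate 1 alone, both doxorubicin libraries were higher for each of these genes, beside 53.1% of all genes. KRT75, also chosen after its values were seen, reached the level of the filter through the doxorubicin libraries alone, with 2 and 7 counts in untreated and 18 and 10 counts in doxorubicin libraries, so that its direction was set by the filter. KRT10 had a log2 fold change of -0.03 (SE 0.34).

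Genes that anchor or accompany keratin filaments were examined in lists. In the edgeR quasi-likelihood test 0 of all 17479 genes passed, so 0 passing is not particular to any list. Of 14 desmosome genes, which join keratin filaments of adjacent cells, 7 were tested and 0 passed, with a median log2 fold change of 0.17, which was -0.20 without untreated replicate 2 and 0.56 without untreated replicate 1. JUP, which encodes plakoglobin, was the highest, with a CPM of 994 and 1179 in untreated and 758 and 767 in doxorubicin libraries, a log2 fold change of -0.67 (SE 0.26). Desmoplakin (DSP), which binds keratin directly, had a CPM of 250 and 204 in untreated and 235 and 275 in doxorubicin libraries, and PERP, a desmosome protein and p53 target, had 200 and 257 against 271 and 302. Of the 14, 7 reached a CPM of 1 in all 4 libraries and the other 7 stayed under 1 in every library, among them the plaque gene PKP1 with 3 to 9 counts and the desmocollins DSC1, DSC2 and DSC3 with at most 4 counts, named after their values were seen.

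Of 9 hemidesmosome and keratin linker genes, 9 were tested and 0 passed, with a median log2 fold change of 0.30. All 9 were above 0, beside 8873 of all 17479 genes tested. Without untreated replicate 2 the median was 0.06 with 5 above 0, beside 9963 of 18356 genes. Untreated replicate 2 was the lowest library in 8 of the 9, beside 45% of all genes. PLEC, which encodes the linker plectin, had a CPM of 1761 and 561 in untreated and 2203 and 2132 in doxorubicin libraries, CD151 had 334 and 328 against 420 and 349, and DST (dystonin) had 137 and 27.4 against 185 and 221. The log2 fold change went from 0.74 to 0.15 for PLEC and from 1.14 to 0.41 for DST when untreated replicate 2 was left out. ITGB4 (integrin beta 4) and COL17A1, both components of hemidesmosomes named after their values were seen, had unadjusted p-values of 0.0171 and 0.0349 (edgeR). In that test 4.39% of all genes had an unadjusted p-value under 0.05.

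Of 15 other intermediate filament genes, 10 were tested and 0 passed, with a median log2 fold change of -0.04, which was -0.22 without untreated replicate 2 and 0.23 without untreated replicate 1. VIM, which encodes the mesenchymal filament protein vimentin, had a CPM of 752 and 718 in untreated and 1011 and 833 in doxorubicin libraries, so that vimentin mRNA was present in all libraries together with the keratins. The lamin genes LMNA and LMNB2 had a CPM of 1007 and 1401 against 907 and 875, and of 166 and 59.4 against 146 and 136.

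Of 15 genes for regulators of keratin and epithelial genes, 10 were tested and 0 passed, with a median log2 fold change of -0.71, and of -0.07 without untreated replicate 2. KLF5, a factor of epithelial progenitors, had a CPM of 148 and 126 in untreated and 159 and 200 in doxorubicin libraries, TFAP2A had 127 and 51.3 against 90.5 and 94.8, and the splicing factor ESRP2 had 79.6 and 77.5 against 52.3 and 49.4.

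Marker lists of other cell types were set beside the keratins. Of 14 squamous differentiation genes, 8 stayed under a CPM of 1 in every library, and the sum of the list, 274 and 749 in untreated and 199 and 181 in doxorubicin libraries, was mostly SFN (14-3-3 sigma, a p53 target), with a CPM of 252 and 723 against 173 and 153. S100A2 (10.9 and 13.3 against 13.6 and 17.5) and TGM1 (7.91 and 3.53 against 4.72 and 3.55) came next. SPRR1B and CALML3 of this list had 0 counts throughout. Squamous differentiation genes other than SFN were therefore low in libraries with abundant KRT17.

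Of 9 biliary epithelium markers, 5 reached a CPM of 1 in all libraries, led by CD24 (153 and 103 against 181 and 163), SOX4 (32.0 and 95.4 against 46.5 and 51.2) and ANXA4 (44.4 and 55.9 against 49.6 and 53.4). Of 7 urothelium markers, 2 did so, PPARG (54.8 and 17.9 against 46.4 and 54.2) and UPK3B (2.89 and 3.77 against 1.92 and 1.16), while GATA3 (2.01 and 10.5 against 0.903 and 0.979) did not. Of 11 mesenchymal markers, 9 did so, led by COL5A1 (486 and 280 against 839 and 600), CDH2 (131 and 61.1 against 120 and 120) and COL1A1 (84.4 and 46.4 against 79.2 and 64.3). Of 8 epithelial junction markers, 5 did so, led by CLDN1 (96.6 and 126 against 123 and 142), TJP1 (13.8 and 2.49 against 11.6 and 15.2) and CLDN7 (3.94 and 2.91 against 9.65 and 7.98). Of 6 leukocyte markers, 0 did so, and LAPTM5, CORO1A and PTPRC were at most at a CPM of 1.56, 1.59 and 0.416. The epithelial surface markers EPCAM and CDH1 (E-cadherin), chosen after their values were seen, had 0 and 7 counts against 0 and 2, and 7 and 21 against 5 and 6, so that both were near the detection limit in cells with abundant keratin mRNA. Each set in parentheses gives CPM of untreated replicates 1 and 2 against doxorubicin replicates 1 and 2. Median log2 fold changes were -0.07 for the squamous, -1.24 for the urothelium, 0.16 for the mesenchymal, 0.10 for the junction and -1.04 for the leukocyte list, over 6, 5, 9, 6 and 2 genes tested. They were 0.44, -0.27, 0.40, 0.41 and 0.74 without untreated replicate 2. Of the biliary list 7 genes were tested, and no median is given. SPP1 of that list passed the filter through the doxorubicin libraries alone, with 4 and 9 counts in untreated and 20 and 15 in doxorubicin libraries. No gene of these lists passed the thresholds in the edgeR quasi-likelihood test, as did 0 of all 17479 genes tested. DESeq2, which called 89 of all genes (0.509%), called the mesenchymal marker FN1 (fibronectin), named after its values were seen. FN1 had 230 and 195 counts in untreated and 1199 and 794 in doxorubicin libraries. Its log2 fold change was 2.13 in edgeR and 2.19 without untreated replicate 2, with an adjusted p-value of 0.00845 in DESeq2. FGG and FGB of the hepatocyte list also passed in DESeq2. Their direction was set by the filter, so these calls are not read as changes. The part of the lists in the keratin levels was not tested.

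**Figure D5:**
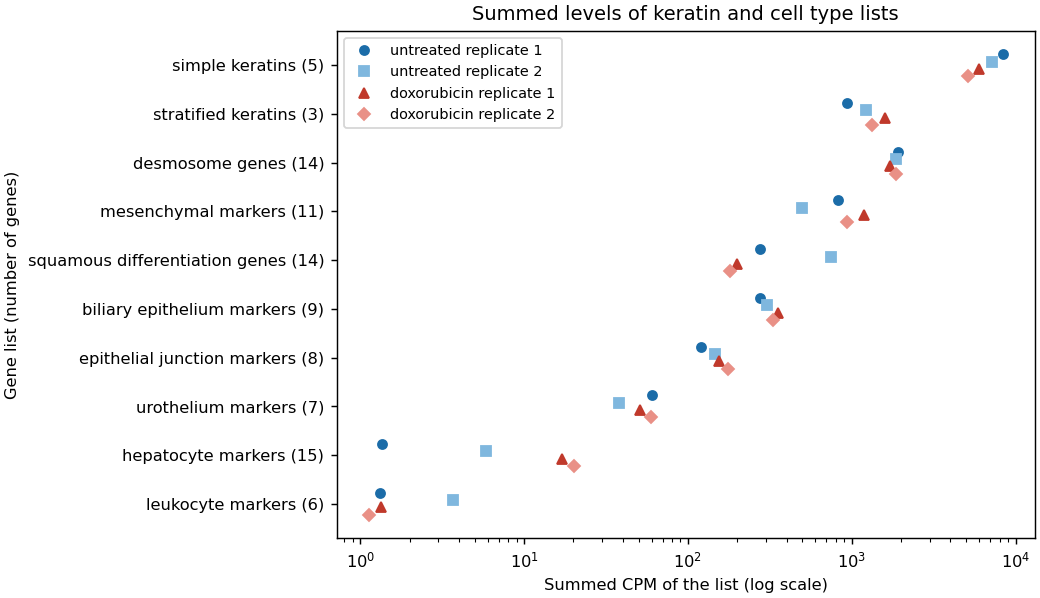
Summed CPM of the genes of each list in the 4 libraries, on a log axis, with the number of genes of each list in parentheses. Simple keratins sum to between 5089 and 8366 and hepatocyte markers to between 1.35 and 20.1.

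The genes whose pattern over the 4 libraries was most like that of KRT8, by the root mean square difference of centred log2 CPM, were ARHGDIB (0.042), AC012618.3 (0.044) and GRWD1 (0.055), and those most like KRT17 were BBOF1 (0.017), RBCK1 (0.027) and SH3BP1 (0.030). Among the 17479 genes tested, 17 lay within 0.1 of KRT8 and 68 within 0.1 of KRT17, and how often other genes are as alike was not computed. With only 4 libraries no link between these genes is drawn from the likeness.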

How the data were processed

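RNA-seq counts of 4 libraries (2 untreated, 2 with doxorubicin) were used. The authors used FastQC and Cutadapt for read quality, HISAT2 for mapping to hg38 and HTSeq for counting, and deposited raw counts per gene for each library. The file headers name GENCODE release 31, and tool versions are not given in the sources used here. Depth was 27572740 to 36272180 counts.

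CPM was the count over the library total. Positions and lengths came from GENCODE release 44 (GRCh38), matched by symbol for all 55 keratin genes, with the Ensembl canonical transcript as length. Groups were compared with edgeR 4.0.16 in R 4.3.3 (filterByExpr, TMM, glmQLFit in its newer form, glmQLFTest), with standard errors taken from the log2 fold change and its F statistic. The fit was tested on simulated counts with known changes, in which no library stood apart. Its behaviour with a library like untreated replicate 2 was not tested. Alternatives were DESeq2 1.42.0, other edgeR tests, scalings and filters, the replicate block and each library left out. Sequence and levels used Python 3.11.15, pandas 2.3.3 and Biopython 1.88.

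The replicate numbers were not used to pair the libraries in the main fit, and whether they mark a shared batch is not known. Named genes were the 10 keratins, other keratins with a CPM of at least 5 in any library, the 3 most abundant genes of each list, and the 3 genes most like KRT8 and KRT17. Members and lists were chosen with earlier results of these data known.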

Additional observations from a re-analysis of the deposited data

How the results depend on the processing

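With 2 libraries per group, the calls depended on the test and on untreated replicate 2. No keratin was called with RLE factors, library size alone, no filter, a stricter CPM filter, the exact test, the replicate block or edgeR's earlier quasi-likelihood fit (chosen after seeing the data), and 1 (KRT81) was called with the likelihood ratio test and with DESeq2. Over all genes, 0 were called as reported (768 at an unadjusted p-value under 0.05 in edgeR), 38 with the exact test, 64 with the likelihood ratio test, 89 with DESeq2 and 20 with the replicate block. The cause was not tested. With 1 library left out, where a lone library was assumed to vary like the other group, 0 to 3 keratins and 0 to 8697 genes were called, the highest without untreated replicate 1 (where the call of KRT19 was set by the filter, which it passed through the lone untreated library), and 2 keratins and 815 genes without untreated replicate 2. The replicate block changed no call of a keratin. After group means were removed, the libraries numbered 1 had a correlation of 0.0219 across genes. With 2 libraries per group and untreated replicate 2 apart, this value cannot tell whether libraries of the same number shared a batch. The log2 fold change of KRT18 ranged from -0.97 (without untreated replicate 2) to 0.29 (without untreated replicate 1) and that of KRT80 from -0.41 to 0.57 (the same libraries), and KRT80 had 0.12 with library size alone and 0.033 with the replicate block. The stratified over simple difference was 0.91 as reported, 0.59 to 1.24 with 1 library left out, 1.65 without KRT17, 0.56 without KRT8 and KRT18, and 0.78 with the union of exons (chosen after seeing the data, as were list medians with a library left out). The type I over type II difference was 0.56 as reported and 0.37 to 0.76 with 1 library left out. Depth limits KRT5, KRT19 and KRT20, for which no fold change is given.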
